A study of Mus musculus with 10 samples.

Results

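A set of 97 genes, of 22867 measured in mouse pluripotent cells, was lower when Otx2 was induced with doxycycline (dox) in embryonic stem cells (ESCs) and was not lower when ESCs became epiblast-like cells (EpiLCs). Members were chosen on FPKM (fragments scaled for transcript length and library depth) plus 1. A member had at least 5 FPKM in the ESC library without dox, a ratio of at least 2 without against with dox, a level above 0 with dox, and a mean over the 3 R1 and E14 EpiLC libraries of at least 0.77 times that over the 3 R1 and E14 ESC libraries. Of 531 genes that were at least 2-fold lower with dox, 76 were listed at 0 with dox and were left out, and 347 lay below the EpiLC threshold. The choice also dropped, by symbol, small RNAs (Mir, Snor, Scarna), the Spry, Etv, Dusp and Lefty families, Tcf15, Eras and Sox2, which removed 11 genes: 6 small RNAs, the phosphatase genes Dusp1, Dusp6 and Dusp16, the transcription factor gene Etv4, and Tcf15. The dox values and the R1 and E14 EpiLC to ESC ratios therefore describe the members and test nothing.

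Otx2 is a homeobox transcription factor of the epiblast and the anterior embryo. ESCs held with inhibitors of MEK and GSK3 are in the naive state of the early epiblast, and EpiLCs, made from them with FGF, stand for the epiblast after implantation. Forced Otx2 in ESCs is known to switch on part of the EpiLC programme, and the naive factors are known to fall on both routes. The genes described here are those for which the routes part: they went down with induced Otx2 but, by the mean of R1 and E14, did not fall below 0.77 of their ESC level in EpiLC.

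The 10 RNA sequencing libraries came from ESC lines of 129SV origin. ESC libraries were R1 (2 replicates), E14 and Otx2-/-, grown without serum with LIF, PD0325901 at 0.8 µM and CHIR99021 at 3.3 µM. EpiLC libraries, made with bFGF and knockout serum replacement, were taken at 48 h: R1 without activin A, R1 with activin A at 20 ng/ml, E14 and Otx2-/-. The labels do not give activin A for E14 and Otx2-/- EpiLC. The remaining libraries are Otx2-/- ESC with a tetON Otx2 transgene, cultured without dox (called no dox here) or with it. Both have the Otx2-/- genotype by label, and the same PD0325901 and CHIR99021 doses as the other ESC libraries. Every group other than R1 ESC is a single library. Dox dose and duration, clonality of the transgenic line and the deleted part of Otx2 are not stated in the labels. No cells without the transgene were grown with dox, so effects of dox and of induced Otx2 cannot be told apart.

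Otx2 itself was 45.8 FPKM in the no dox library and 1059.3 with dox, beside 7.85 in Otx2-/- ESC and 15.8 in Otx2-/- EpiLC, between 3.96 and 9.09 in R1 and E14 ESC, and between 39.9 and 151 in R1 and E14 EpiLC. Otx2 RNA in the library labelled Otx2-/- ESC thus lay within the range of R1 and E14 ESC, and that of Otx2-/- EpiLC below R1 and E14 EpiLC. As the deleted part is not stated, remaining RNA does not check these labels. The no dox library held more Otx2 RNA than any R1 or E14 ESC library. Approximate depth was 15100000 fragments without dox and 9200000 with dox, and over all libraries it ran from 6600000 to 20600000. At that depth 1 FPKM in a transcript of 2 kb rests on about 18.3 fragments in the dox library. The R1 ESC replicates differed by at least 2-fold in more genes (5.42% higher and 6.09% lower in replicate 2) than E14 ESC and R1 ESC replicate 2 did (1.35% and 1.12%). Of 14 general pluripotency genes, 4 were at least 2-fold lower with dox and 0 higher (over all genes 5.71% were lower and 6.42% higher). Summed fibroblast markers went from 316 to 153 FPKM with dox, with only Vim and Timp1 reaching 5 FPKM and Lox at 0, and summed neural markers, none of 13 at 0, from 92.9 to 32.8. Summed anterior neural and retina markers went from 23.5 to 37.9 FPKM with dox, and primitive streak and mesoderm markers from 9.83 to 15.2. Endoderm markers, with Ttr at 0 with dox, went from 24.1 to 34.1, and trophoblast markers, with Cdx2 at 0, from 41.8 to 33.7. Few markers reached 5 FPKM in the pair: 5 neural, 2 anterior neural and retina, 1 primitive streak and mesoderm, 3 endoderm and 3 trophoblast. Of the neural ones 3 were at least 2-fold lower with dox and 1 higher. In the anterior neural, endoderm and trophoblast lists 1 was lower and 1 higher each. A sum thus does not give the direction of its whole list. The part of these markers in the members' values was not tested.

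**Figure D1:**
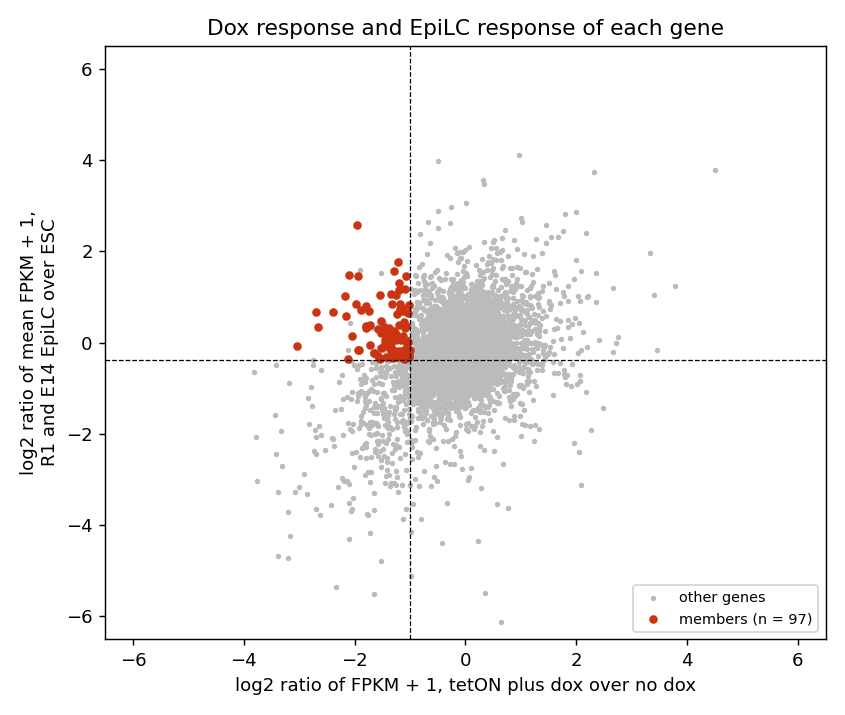
Each point is a gene with at least 5 FPKM without dox. The horizontal axis is the log2 ratio of FPKM + 1 with over without dox, the vertical axis the log2 ratio of mean FPKM + 1 in R1 and E14 EpiLC over ESC, and the dashed lines are the thresholds of the choice. The 97 members (red) fill the upper left corner, with Calca as the highest point, while most of the genes left of the vertical line lie below the horizontal one.

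The members ranged in level without dox from 5.11 to 213 FPKM with a median of 18.2, and with dox from 0.822 to 96.8 with a median of 5.81. Their ratio of FPKM + 1 without against with dox ran from 2.00 to 8.21 with a median of 2.47. By construction all 97 were at least 2-fold lower with dox, against 5.71% of the 9304 genes with 5 FPKM in either library (6.42% were higher), so nothing is read from that count. Just inside the ratio threshold lay X99384 (32.2 FPKM without and 15.6 with dox), Cmah, Lrig3 and Helb, and just outside it Zfp532 (13.3 and 6.16), Myo10, Aldoc and Bckdha. At the EpiLC threshold the interferon-induced membrane protein genes fell on either side, Ifitm1 inside with a ratio of 0.802 and Ifitm3 outside with 0.762. At the level threshold Dab1 had 5.11 FPKM without dox and Tnfrsf1b, outside, 4.93.

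Slc7a3, which encodes a carrier of arginine and lysine, had the largest ratio. It lies on chromosome X at 98274559 to 98280691 (mm9). Among ESC libraries it had 53.5 and 56.8 FPKM in R1, 75.2 in E14, 85.4 in Otx2-/- ESC, 92.9 without and 10.4 with dox. In EpiLC it was 54.6 without and 60.4 with activin A in R1, 60.9 in E14 and 63.3 in Otx2-/-. The 9 libraries without dox thus lay between 53.5 and 92.9, and the dox library lay below all of them. Crmp1, a gene of the neuronal cytoskeleton (chromosome 5, 37633318 to 37683372), had 17.7, 17.2, 17.5 and 22.4 FPKM in R1 replicates 1 and 2, E14 and Otx2-/- ESC, 19.7 without and 2.22 with dox. EpiLC libraries were higher, at 26.5, 23.7, 34.5 and 51.0 in R1 without and with activin A, E14 and Otx2-/-.

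Calca, which encodes calcitonin and the neuropeptide CGRP (chromosome 7, 121774991 to 121779871), moved furthest apart on the routes. ESC libraries of R1 and E14 had 6.19, 8.76 and 4.71 FPKM of it, with 6.38 in Otx2-/- ESC, 6.71 without and 0.987 with dox. In EpiLC it had 52.4 and 55.4 FPKM in R1 without and with activin A, 24.5 in E14 and 23.5 in Otx2-/-. All 4 EpiLC libraries therefore exceeded all 6 ESC libraries, and the dox library was the lowest of the 10. Camkv, a kinase-like protein of synapses (chromosome 9, 107838250 to 107852022), had the same order on a smaller scale, with 0.977 FPKM with dox, between 4.76 and 6.80 in the other ESC libraries and between 8.28 and 13.5 in EpiLC. Tor3a, of the torsin family of ATPases, had 0.822 with dox, between 3.29 and 6.81 in the other ESC libraries and between 10.7 and 14.8 in EpiLC.

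Promoters of Crmp1, Camkv and Calca are shown because these genes were low with dox and high in EpiLC, and because Camkv is among the few members whose promoter holds the core bound by Otx2-type homeodomains, TAATCC. Capitals mark that core, here read as GGATTA from the other strand. The sequences are the 250 bases before the start of the gene, from RefSeq on GRCm38.p6, at chr5:37241808-37242057 (plus strand), chr9:107935670-107935919 (plus) and chr7:114636358-114636607 (minus).
Crmp1: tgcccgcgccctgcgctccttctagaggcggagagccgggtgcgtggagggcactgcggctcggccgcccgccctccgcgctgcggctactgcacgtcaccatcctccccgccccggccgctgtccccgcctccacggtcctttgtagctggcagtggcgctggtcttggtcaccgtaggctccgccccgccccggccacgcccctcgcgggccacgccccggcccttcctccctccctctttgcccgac
Camkv: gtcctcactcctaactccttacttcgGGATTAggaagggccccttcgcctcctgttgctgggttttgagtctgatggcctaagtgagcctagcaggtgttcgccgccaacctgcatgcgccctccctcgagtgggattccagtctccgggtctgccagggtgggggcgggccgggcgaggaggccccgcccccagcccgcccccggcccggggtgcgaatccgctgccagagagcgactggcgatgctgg
Calca: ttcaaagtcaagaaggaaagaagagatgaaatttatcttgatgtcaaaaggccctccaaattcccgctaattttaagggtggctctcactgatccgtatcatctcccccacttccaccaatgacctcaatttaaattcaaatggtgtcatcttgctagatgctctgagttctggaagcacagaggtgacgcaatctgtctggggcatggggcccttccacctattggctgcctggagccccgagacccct
Of the 97 members 70 had a promoter of 300 bases in the RefSeq table (250 before to 50 after the start). The core TAATCC, on either strand, was in 4 of 70 (5.71%), those of Camkv, Gadd45b, Ifitm1 and Smagp, against 5.32% of 6806 promoters of genes with at least 5 FPKM without dox and 7.16% of all 27025. An ETS core, CCGGAAG, was in 11.4% of the members' promoters against 21.9% and 9.12%, and the E-box CACGTG in 14.3% against 11.5% and 7.24%. ACGTG, the core of hypoxia response elements that is also part of that E-box, was in 24.3% against 28.1% and 19.7%, and TATAAA in 10.0% against 6.05% and 14.2%. Median GC content was 61.8% in members and 61.3% in expressed genes. The members were spread over 19 chromosomes, with at most 10 on any of them. Sigirr and Ano9 on chromosome 7 lie 672 bp apart, and the ends of Slc9a3r1 and Fdxr on chromosome 11 86846 bp apart.

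Among the other members with the largest ratios, Grin1 (a glutamate receptor subunit) had 14.7 FPKM without and 1.48 with dox, but R1 ESC replicate 1 was lower still, at 0.475, against 11.8 in replicate 2. Alox5ap, which helps make leukotrienes, had 12.5 and 1.59. Ndrg2 had 11.7 and 1.85, Socs2, a feedback inhibitor of cytokine receptors, 19.4 and 4.32, and Phlda2, an imprinted growth-limiting gene, 30.3 and 6.55. Values for Hist1h2af, from a family of near-identical histone genes without poly(A) tails, are uncertain: it was listed at 0 in E14 EpiLC, had 37.3 FPKM in R1 EpiLC with activin A and was the only member with a 0. Gm11627 had 7.48 and 0.962. The plot of these genes by library shows the dox library lowest in 10 of the 12, the exceptions being Grin1 and Hist1h2af.

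**Figure D2:**
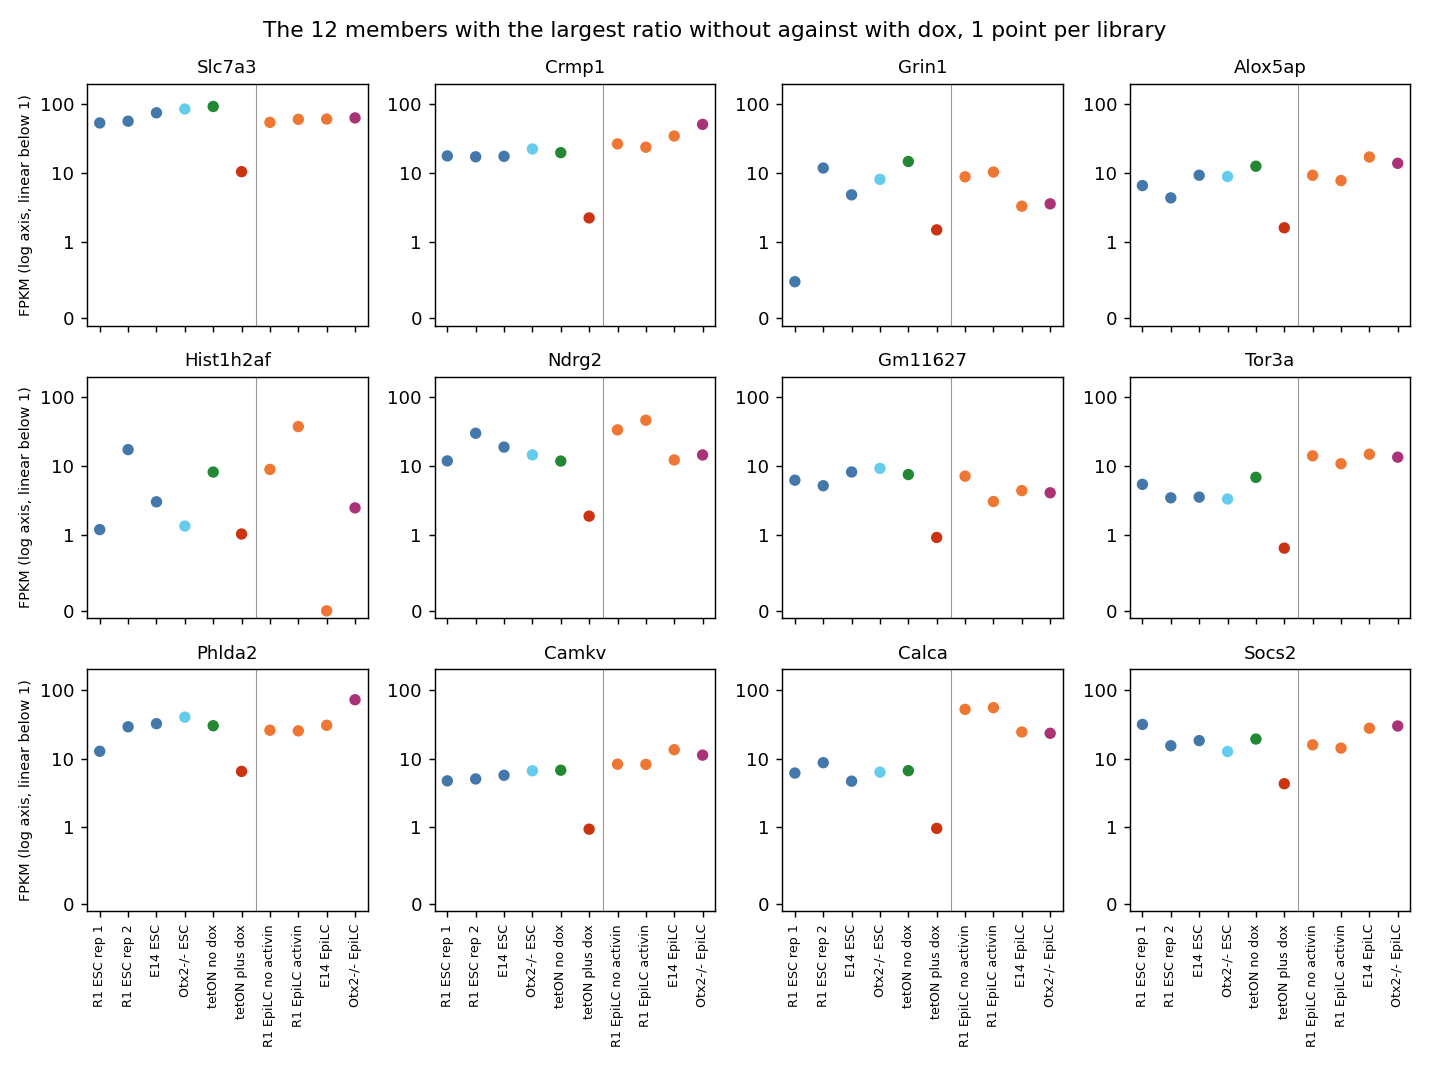
FPKM (log axis, linear below 1) of the 12 members with the largest ratio without against with dox, with 1 point per library and a grey line between ESC (left) and EpiLC (right). The dox library (red) is lowest for Slc7a3 at 10.4 and Crmp1 at 2.22, whereas R1 ESC replicate 1 is lowest for Grin1 and E14 EpiLC for Hist1h2af.

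The Otx2-/- ESC library, which had no part in the choice, gives a second view of the level without dox. It lay close to the no dox library, with a median log2 ratio over the members of -0.04, against -0.03 over the 8951 genes with 5 FPKM in either. No member was at least 2-fold higher in Otx2-/- ESC than without dox (1.36% of those genes were), and 3 were at least 2-fold lower (1.34% were). These were Hist1h2af, Sfn (3.43 against 10.6 FPKM) and 1600029D21Rik (1.70 against 5.54). For these 3 genes the level without dox was itself above every R1, E14 and Otx2-/- ESC library except, for Sfn, R1 ESC replicate 1 with 18.7, and, for Hist1h2af, R1 ESC replicate 2 with 17.2.

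Against the dox library, Otx2-/- ESC was at least 2-fold higher for 64 of 97 members, against 7.39% of the 9422 genes with 5 FPKM in either, and at least 2-fold lower for 0 (8.34%). The median log2 ratio was 1.26, beside 0.03 over those genes. The dox library was chosen to be low, so this count is a description. The largest ratios were those of Slc7a3 (2.92), Crmp1 (2.86), Phlda2 (2.45), Ndrg2 (2.44) and Gm11627 (2.38). The smallest were those of Sfn (-0.01), 1600029D21Rik (0.18), Ier5l (0.18), Hist1h2af (0.21) and Gadd45a (0.33), so for these 5 the dox and Otx2-/- ESC libraries lay close together.

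The dox library lay below all 4 of the R1, E14 and Otx2-/- ESC libraries for 87 of the 97 members, against 36.8% of 9903 genes with 5 FPKM in any ESC library, and was the lowest of all 10 libraries for 78 (19.7% of genes), or 85 without R1 ESC replicate 1. Members were chosen to be low with dox, so these counts follow largely from the choice and test nothing. Of the 10 exceptions, 9 were genes that R1 ESC replicate 1 held lower still, among them Stra8 (0.354 FPKM against 2.86 with dox), Ndufa4l2 (1.78 and 3.28) and Bhlhe40 (3.02 and 7.36). Without that replicate 96 members lay below, and Sfn did not. The level without dox lay within the range of those 4 ESC libraries for 54 members, above it for 30 and below it for 13. Without R1 ESC replicate 1 these counts were 35, 40 and 22. The no dox library was itself used in the choice, as the higher of the dox pair. The share over all genes was not computed, so nothing is read from these counts.

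**Figure D3:**
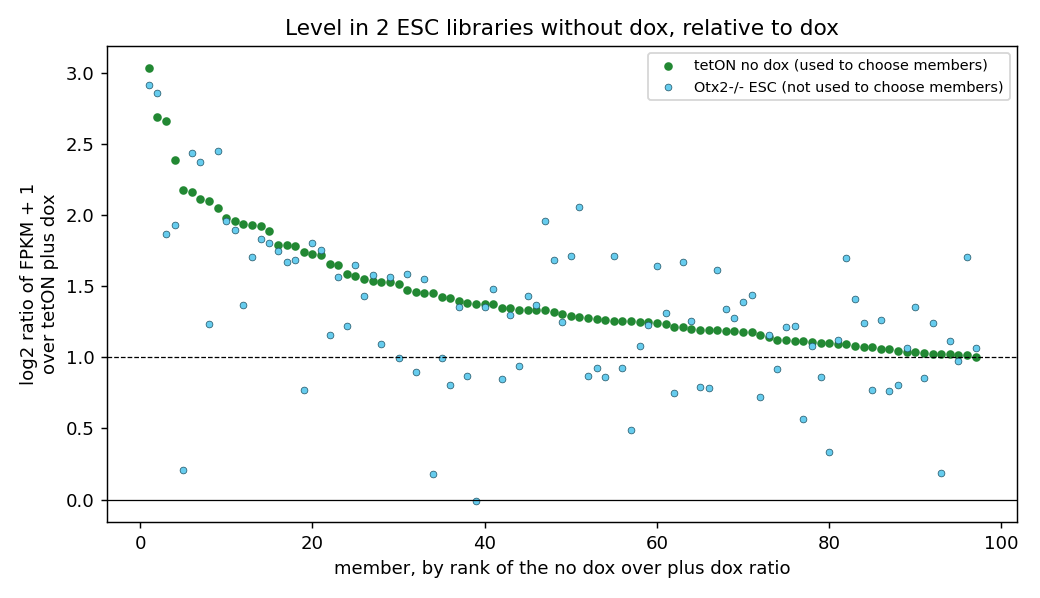
Log2 ratio of FPKM + 1 over the dox library for each of the 97 members, ordered by the ratio without against with dox. Green points are the no dox library, used in the choice, and blue points Otx2-/- ESC, not used, and the dashed line is a 2-fold ratio. Green and blue points are ratios over the same dox library, so blue ones follow green ones in part by construction. The blue points spread widely, and 67 of them reach the dashed line, 3 of these with under 5 FPKM in both libraries.

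The members were then sorted by the known roles of their products. This grouping was made after their values were seen and has no test. Regulators of pluripotency and the early embryo formed a group of 10 with a median log2 change with dox of -1.12 and a median log2 EpiLC to ESC ratio of -0.00. Lin28a, which blocks maturation of let-7 microRNAs, had 110 FPKM without and 49.9 with dox, between 78.7 and 249 in the other ESC libraries and between 109 and 200 in EpiLC. Mycn went from 36.3 to 17.0 and was between 30.4 and 45.5 in the other 8 libraries. Sall1 (38.6 to 14.9), Zfp462 (15.96 to 5.19), Rybp, a Polycomb subunit gene (63.4 to 29.1), and the retinoic acid receptor gene Rarg (53.8 to 25.7) showed the same order, with the dox library lowest of the 10. Myc and Gbx2 varied more between libraries without dox: Myc had 28.7 FPKM in R1 ESC replicate 1, 2.29 in replicate 2, and 32.7 and 27.8 in E14 and Otx2-/- EpiLC, beside 5.45 without and 1.15 with dox.

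The 7 genes of hypoxia and energy stress had a median log2 change with dox of -1.29. Ndrg1, induced by low oxygen (chromosome 15, 66760879 to 66801203), had 8.30, 21.8 and 20.0 FPKM in R1 replicates 1 and 2 and E14 ESC, 19.01 in Otx2-/- ESC, 22.4 without and 5.15 with dox. In EpiLC it had 61.2 and 60.8 in R1 without and with activin A, but 21.3 in E14 and 17.9 in Otx2-/-. Txnip, an inhibitor of thioredoxin and glucose uptake, was likewise higher in R1 EpiLC than in the other EpiLC libraries, with 335 and 437 FPKM in R1, 101 in E14 and 104 in Otx2-/-, beside 54.0 without and 21.6 with dox. Its ESC libraries ranged from 38.3 in R1 replicate 1 to 161 in replicate 2. In E14 both differed little between ESC and EpiLC, with 20.0 and 21.3 FPKM for Ndrg1 and 92.0 and 101 for Txnip. Ndufa4l2, Plod2, a collagen lysyl hydroxylase gene (21.0 to 8.01), Bhlhe40, Epas1, which encodes HIF-2alpha (10.6 to 3.81), and the HIF antagonist gene Cited2 (22.1 to 5.67) complete the group. On the list of 34 glycolysis and hypoxia genes, 31 reached 5 FPKM in the pair. Of these, 2 were at least 2-fold lower with dox, Ndrg1 and Pfkp, and 2 higher, with a median of -0.26 beside -0.06 over all genes. Over all genes 5.71% were lower and 6.42% higher, so this list lay near the background each way.

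Genes of membrane transport numbered 8, with a median change of -1.69. Besides Slc7a3 they were Slc5a11 (12.8 to 2.73 FPKM), the amino acid carrier gene Slc6a15 (5.13 to 0.853), Slc47a1, Slc9a3r1 (36.8 to 10.3), which encodes a scaffold of membrane transporters, the drug efflux pump gene Abcg2 (19.2 to 7.94), Abcc4 (18.2 to 8.46) and Ano9. Abcg2 was higher in all 4 EpiLC libraries (34.2 to 53.04) than in any ESC library (at most 27.3). Abcc4 was between 15.9 and 21.4 in the 9 libraries without dox. On the list of amino acid stress genes, 18 reached 5 FPKM, and Slc7a3 and Slc7a5 were at least 2-fold lower and 1 higher, with a list median of -0.39 (all genes 5.71% lower, 6.42% higher, median -0.06).

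Feedback inhibitors and growth arrest genes numbered 9, with a median of -1.38. Their median log2 ratio of Otx2-/- ESC was -0.50 over no dox and 0.81 over dox, so the no dox level was itself the higher one. Gadd45a, a stress sensor, had 10.7 FPKM without and 4.48 with dox, but 5.91 in Otx2-/- ESC, and between 17.1 and 23.6 in the EpiLC libraries. Gadd45b had 20.4 and 5.81, and its EpiLC values split into 16.5 and 18.7 in R1 and 7.89 and 5.70 in E14 and Otx2-/-. The BMP inhibitor gene Smad6 (7.31 to 2.11) and Socs2 also belong here. On the list of 12 genes of LIF, Jak and Stat3, the cytokine route that holds the naive state, 4 were at least 2-fold lower with dox and 0 higher. They were Socs2, Gbx2, Pim3 and Klf4, and only the first pair were members. Over all genes 5.71% were lower and 6.42% higher, with a median of -0.06. The list median was -0.35. Of 26 ERK pathway genes with 5 FPKM, 4 were lower (Myc, Dusp6, Etv4 and Spry4) and 0 higher, with a median of -0.21, though the choice removed genes of the Dusp, Etv and Spry families by symbol. Neuronal genes numbered 7 (median -1.96), and adhesion, surface and matrix genes 7 (median -1.40), among them the tight junction gene Cldn4 (42.0 to 13.9) and the receptor phosphatase gene Ptprf (43.0 to 19.9). For the adhesion group the Otx2-/- ESC medians were -0.43 over no dox and 1.00 over dox. In the pluripotency, hypoxia, transport and neuronal groups they lay between -0.12 and 0.06, and between 1.22 and 1.87.

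**Figure D4:**
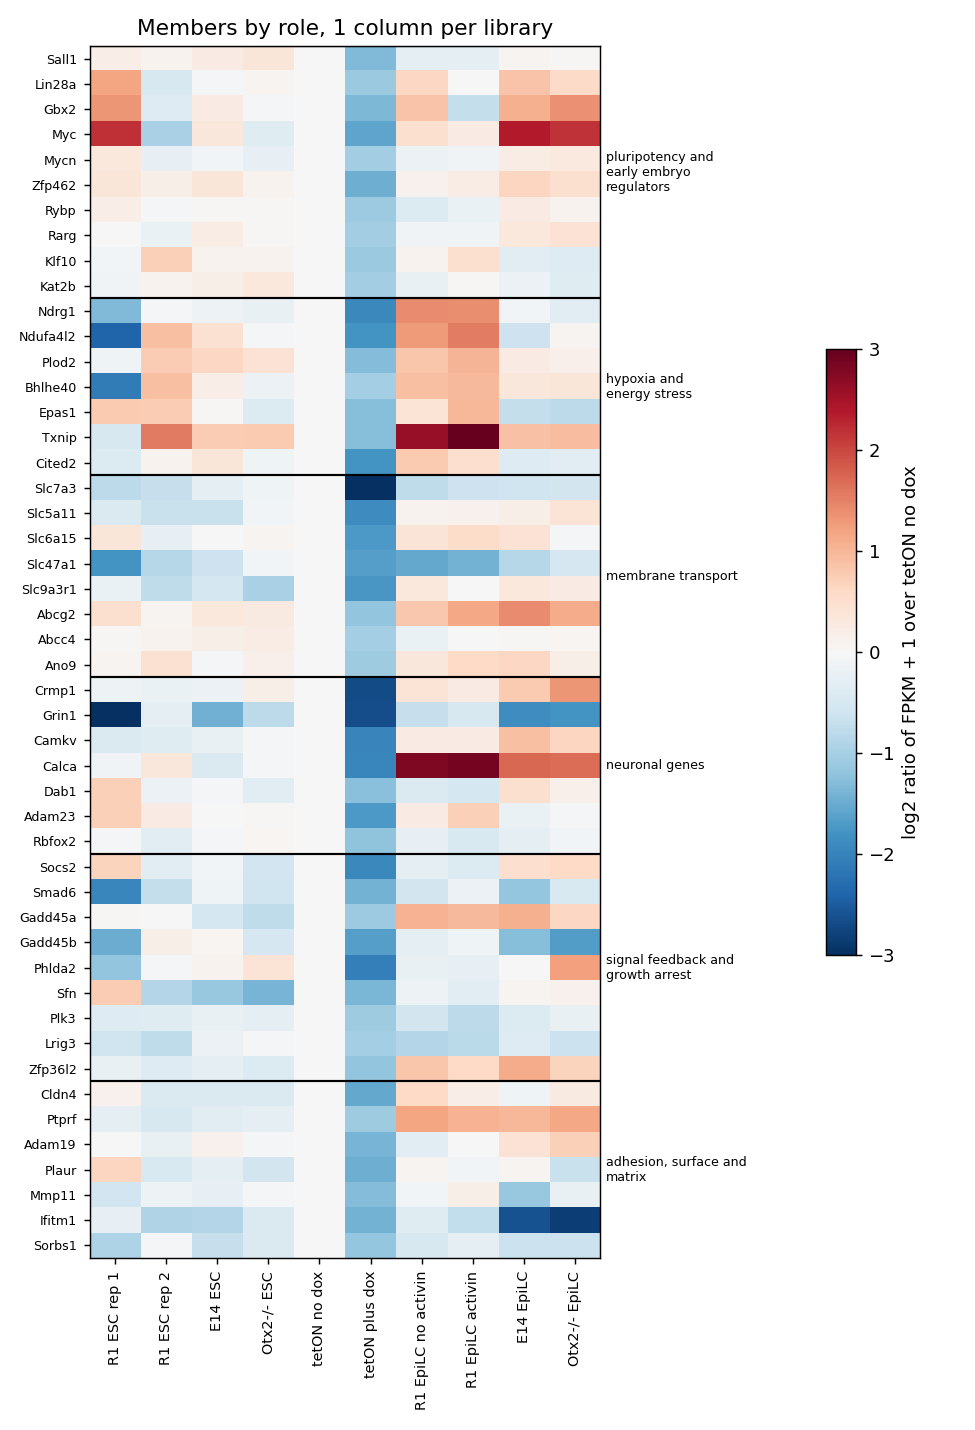
Log2 ratio of FPKM + 1 over the no dox library for the members sorted by role, with 1 column per library. Colours end at the limits of the bar, so values beyond them look alike. The dox column is blue throughout, and Ndufa4l2, Bhlhe40 and Grin1 are also blue in R1 ESC replicate 1.

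Some members share their stretch of genome with another entry, and the library protocol names no strand-marking step. Reads from bases that such a pair shares thus cannot be assigned by strand, and the overlap of their exons was not examined. An overlap of entries held for 11 of the 97. Aire overlaps Dnmt3l, which itself went from 265 to 131 FPKM with dox, and Ndufa4l2 overlaps Shmt2, which went from 93.7 to 44.4. In R1 ESC replicates 1 and 2 Ndufa4l2 had 1.78 and 26.8 FPKM, and Shmt2 had 107 and 114. The part of shared reads in the members' dox values was not tested. Some partners were near 0, such as Tctex1d4, which overlaps Plk3 and had at most 0.259 FPKM. Marcksl1-ps4 is named as a pseudogene, and reads of its parent gene could be counted in it.

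The members chosen for not falling in EpiLC differed among themselves there. Their ratio of mean FPKM + 1 in R1 and E14 EpiLC over ESC ran from 0.775 to 5.97 with a median of 1.07. It was at least 2 for 13 members, between 1.3 and 2 for 19 and below 1.3 for the other 65, of which 39 were under 1. After Calca, the highest were Pdzd4 (11.2 ± 3.11 FPKM in ESC and 40.3 ± 3.40 in EpiLC, SD, n = 3 libraries each), Txnip (97.0 ± 61.4 and 291 ± 172), Tor3a (4.10 ± 1.10 and 13.2 ± 2.13), Ndrg1 (16.7 ± 7.32 and 47.7 ± 22.9), Ptprf (33.0 ± 2.42 and 92.0 ± 6.43), Crip2 (21.4 ± 2.35 and 53.9 ± 10.2) and Gadd45a (9.63 ± 2.12 and 23.0 ± 0.802). The libraries behind each SD mix R1 with E14 and, in EpiLC, R1 with and without activin A. The lowest were 2900011O08Rik, Gm11627, Def6 and Mdn1. Among the most abundant members, Cmah, which encodes the enzyme that makes the sialic acid Neu5Gc, had 197 FPKM without and 96.8 with dox, and 311 ± 128 in ESC and 550 ± 40.8 in EpiLC (SD, n = 3 each). Fam60a, a subunit gene of a histone deacetylase complex, had 127 FPKM without and 49.9 with dox and 141 ± 15.6 in ESC and 295 ± 13.8 in EpiLC. In E14, which supplies 2 of the 6 libraries, 14 members were at least 2-fold higher in EpiLC (6.89% of genes) and 7 at least 2-fold lower (9.24%), among the latter Ifitm1 (116 to 34.2), Aire (37.3 to 11.1) and Ndufa4l2 (19.4 to 8.65). In R1 EpiLC Ifitm1 had 166 and 127 FPKM.

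In the Otx2-/- line, whose libraries were not used in the choice, 5 of 97 members were at least 2-fold lower in EpiLC than in ESC, against 8.47% of the 9324 genes with 5 FPKM in either, and 16 at least 2-fold higher (6.99%). The median log2 ratio was 0.12, beside -0.05 over those genes. Of the 347 genes that were lower with dox and below the EpiLC threshold in R1 and E14, 217 (62.5%) were at least 2-fold lower in Otx2-/- EpiLC, and their median was -1.40. The members and these 347 genes were split by the EpiLC to ESC ratio of R1 and E14. Much of the contrast between them therefore follows from the choice. With 1 library of each state there is no test. The 5 lower members were Ifitm1 (158 to 29.1 FPKM), Plcd1, a phospholipase C gene (12.6 to 2.01), Gadd45b (14.2 to 5.70), Sbk1 (36.8 to 17.4) and Gm11627 (9.18 to 4.06). The largest rises were those of Myc (4.02 to 27.8), Tor3a (3.29 to 13.4), Calca (6.38 to 23.5), Pdzd4 (10.8 to 34.0) and Sfn (3.43 to 11.6). Myc was also higher in E14 EpiLC than in E14 ESC (32.7 and 7.17) but lay between the ESC replicates in R1 EpiLC (8.01 and 6.64).

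**Figure D5:**
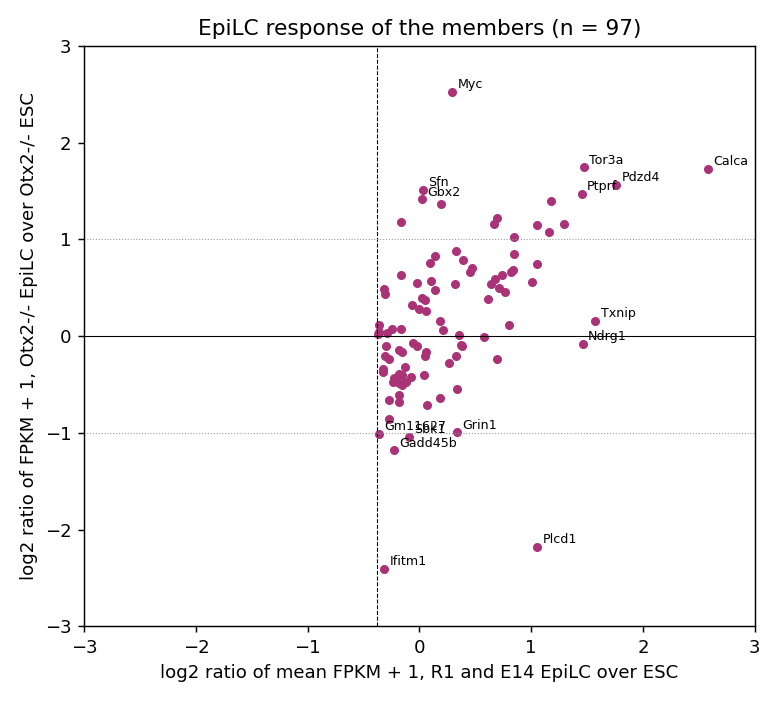
Log2 ratio of FPKM + 1 in Otx2-/- EpiLC over Otx2-/- ESC (vertical axis) against that of mean FPKM + 1 in R1 and E14 EpiLC over ESC (horizontal axis) for the 97 members. The dashed line is the threshold of the choice and dotted lines are 2-fold. Ifitm1 and Plcd1 lie far below the lower dotted line, and Txnip and Ndrg1 lie near 0 on the vertical axis.

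The libraries labelled Otx2-/- were compared with R1 and E14 with limma on log2(FPKM + 1) over 8 libraries and 12271 genes, and all 97 members were expressed enough to be tested. No member passed in Otx2-/- ESC against R1 and E14 ESC (0.0896% of genes were called higher and 0.0489% lower). An unadjusted p under 0.05 was found for 3 members and for 132 of all genes. The members' median was 0.04, and the 3 were Tmem40 (-0.67, SE 0.21), Slc5a11 (0.50, SE 0.17) and Ampd3 (1.49, SE 0.57), each with a limma adjusted p = 1. In EpiLC 0 members passed (0.139% of genes were called higher and 0.0244% lower), and 4 had an unadjusted p under 0.05, beside 441 of all genes. These were Crmp1 (0.85, SE 0.22), Plcd1 (-2.89, SE 0.80), Phlda2 (1.37, SE 0.49) and Rab31 (0.55, SE 0.20), with a limma adjusted p = 0.960 for each. Plcd1 had 2.01 FPKM in Otx2-/- EpiLC and 34.2, 28.6 and 9.56 in the R1 and E14 EpiLC libraries, and Phlda2 had 72.3 against 26.004, 25.5 and 30.7. The EpiLC response itself, Otx2-/- minus R1 and E14, gave 0 calls among the members (0.179% of genes higher and 0.0978% lower), and only Plcd1 had an unadjusted p under 0.05 (-3.17, SE 1.13, limma adjusted p = 0.997), beside 194 of all genes. The Otx2-/- arm of each comparison is 1 library, whose spread is taken to be that of the rest, the R1 and E14 libraries had entered the choice, and activin A may differ in EpiLC.

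Between the R1 EpiLC libraries with and without activin A, a pair of single libraries, 1 member was at least 2-fold higher with it and 2 lower (1.07% of genes each way), close to the background, with a median of -0.01. The lower ones were Gbx2, a homeobox gene of the LIF response (18.7 to 5.69 FPKM), and Gm11627 (7.08 to 3.02), and the higher one was Hist1h2af. Between E14 ESC and R1 ESC replicate 2, 2 members were higher (Myc and Sbk1, against 1.35% of genes) and 2 lower (Hist1h2af and Grin1, against 1.12%).

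The R1 ESC replicates, in contrast, differed in 25 members. In replicate 2 against replicate 1, 18 members were at least 2-fold higher (5.42% of genes) and 7 lower (6.09%), with a median of 0.03 beside -0.22 over all genes. Ndufa4l2 (1.78 FPKM in replicate 1 and 26.8 in replicate 2), Grin1, Bhlhe40 (3.02 and 31.0), Stra8, a retinoic acid induced germline gene (0.354 and 9.51), and Txnip (38.3 and 161) led the higher ones with Hist1h2af. Myc (28.7 and 2.29), Gbx2 (26.6 and 7.31), Lin28a (249 and 78.7), Sfn (18.7 and 5.30) and Rragb (12.8 and 4.80) led the lower ones. For these genes the mean of R1 and E14 ESC, on which the EpiLC threshold was applied, depends on replicate 1: without it 104 genes met the choice, 89 of them members.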

How the data were processed

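The authors deposited 1 table of FPKM per gene for each of the 10 libraries, made with TopHat and Cufflinks on mm9, per the submitters' processing notes; versions and annotation are not stated there. Polyadenylated RNA was primed with random hexamers, per the labels' protocols, which name independent biological replicates of ESC and EpiLC culture without saying which libraries they are. The spread behind the p-values joins R1 with E14 and, in EpiLC, R1 with and without activin A. It therefore mixes differences of line, activin A and culture with technical spread, in unknown parts. Of 23112 entries, 17 exact repeats were dropped, and 228 further entries that shared a symbol were summed, leaving 22867 symbols. Depth was approximated from the smallest steps above 0 in olfactory receptor genes and is rough; the depth limits the precision of low values.

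Tests used limma 3.58.1 in R 4.3.3 (eBayes with trend, two-sided, Benjamini-Hochberg over all genes averaging 1 FPKM or more, threshold 0.05) on log2(FPKM + 1), which understates the change of low genes. The script was tested on simulated data. Pairs of single libraries have no p-value: genes with 5 FPKM in either and a log2 ratio of at least 1 in size were counted. Members and lists were chosen with earlier results of these data known. Genes named were Otx2, the members with the largest dox ratio, level or EpiLC ratio, those next to a threshold and those furthest apart in each pair; others, and the roles, were chosen after their values were seen. Promoters came from RefSeq (GRCm38.p6), matched by symbol or synonym. The role groups are not complete, and 1 member left out of them on purpose is not reported here; counts over all members include it. Alternatives are in the closing section.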

Additional observations from a re-analysis of the deposited data

How the results depend on the processing

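The number of members ranged from 72 to 111 under other pseudocounts, scalings and level thresholds, and from 94 to 104 when each R1 or E14 library was left out in turn. It was 23 with a dox ratio of at least 3, and 58 with an EpiLC mean no lower than that of ESC, since both narrow the choice. The limma counts of members called stayed at 0 in all 3 comparisons under every alternative run, leaving out each R1 or E14 library included, where the range was 0 to 0; the Otx2-/- libraries, each a whole arm, were not left out. The median of Otx2-/- ESC over dox was 1.36 with a pseudocount of 0.5, and that of R1 ESC replicate 2 over 1 was 0.15 with quantile scaling. Members lower in Otx2-/- EpiLC than ESC numbered 5, and 3 with quantile scaling. Members below the other 4 ESC libraries with dox numbered between 86 and 96 (alternatives chosen after seeing the data, as were those for the Otx2-/- EpiLC count). Pairing by replicate number was not possible because only the R1 ESC libraries carry such numbers. A term for the line (E14 against R1) also gave 0 members in all 3 comparisons. Low values in the dox library, of about 18.3 fragments per FPKM for a 2 kb transcript, limit the largest ratios.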
